A study of Mus musculus with 6 samples.

Results

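H3K4me1 peaks were examined at 8 genes of the Meis, Pbx and Pknox families, taken from the 21755 protein-coding genes that GENCODE vM21 places on chromosomes 1 to 19 and X. The genes, Meis1, Meis2, Meis3, Pbx2, Pbx3, Pbx4, Pknox1 and Pknox2, were chosen by family and not by their peaks. A peak was counted for a gene if it overlapped the gene body or the 5 kb on either side. Farther peaks were counted up to 300 kb from the body where the nearest protein-coding start site was that of the gene. By this rule, 46 of 16788 peaks in replicate 1, 36 of 12969 in replicate 2 and 40 of 13998 in replicate 3 belonged to the 8 genes.

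The proteins of these families carry a homeodomain of the TALE type, named for a loop of 3 extra amino acids. Meis and Pknox proteins pair with Pbx proteins, and the pairs bind DNA together with Hox and other factors. In the face, where most of the mesenchyme comes from Hox-negative neural crest, Meis2 and Pbx proteins are known to be needed for normal development. H3K4me1, a single methyl group on lysine 4 of histone H3, marks enhancers, both active and poised, and the shoulders of active promoters.

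The samples were wild-type whisker pads of mice of the strain given as B6/J2, dissected at embryonic day 12 and dissociated to single cells. CUT&Tag, in which an antibody tethers a transposase to the mark, was performed on 3 samples with anti-H3K4me1 and on 3 with control IgG. No IgG sample was analysed here. No control background therefore stands beside the values, and all comparisons are between genes within 1 condition. A pad holds mesenchyme, epithelium, vessels, nerve and muscle precursors, and few cells with much of the mark cannot be told apart from many cells with little.

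The lists contain only the strongest 1% of signal blocks of each library, with a total signal (pileup summed over the bases of a peak) that is not scaled to depth. It was therefore expressed as a percentile within its own list, where 50 is the list median. The summed total signal was 822360552, 985881531 and 744342185 in replicates 1, 2 and 3. Adult kidney is written as the source of 4 samples whose titles say whisker pad, and H3K4me1 replicates 2 and 3 are 2 of these. Peaks lay over 13, 13 and 12 of 13 genes known from facial mesenchyme (replicates 1, 2 and 3, as everywhere below), over 4, 4 and 2 of 12 adult kidney genes and over 6, 6 and 3 of 10 surface ectoderm genes. Skeletal muscle precursor genes carried one in 3, 3 and 3 of 4 cases, endothelial genes in 2, 1 and 1 of 5, neuronal genes in 0, 1 and 0 of 5, and none of 7 erythroid genes did in any replicate. Genes with a peak in all 3 replicates numbered 12, 2, 3, 3, 1, 0 and 0 in these lists, in the order named. Over all protein-coding genes this share was 15.5%, so the kidney count of 2 of 12 is near it.

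Peaks were present over 4 of the 8 genes in all 3 replicates, namely Meis1, Meis2, Pbx2 and Pknox2. Over all protein-coding genes this share was 15.5%. It was 46.0% for genes of 100 kb or more, a class that holds Meis1, Meis2, Pbx3 and Pknox2, of which 3 of 4 had peaks in all replicates. It was 9.86% for genes under 50 kb, which include the other members, and there 1 of 4 did so. Meis3 and Pbx4 had no peak in any replicate, as was the case for 71.2% of all genes. Over the body, Pbx3 had peaks in replicate 3 only and Pknox1 in replicate 2 only. Leaving out any single replicate left the count of genes with a peak in all the others at 4.

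**Figure D1:**
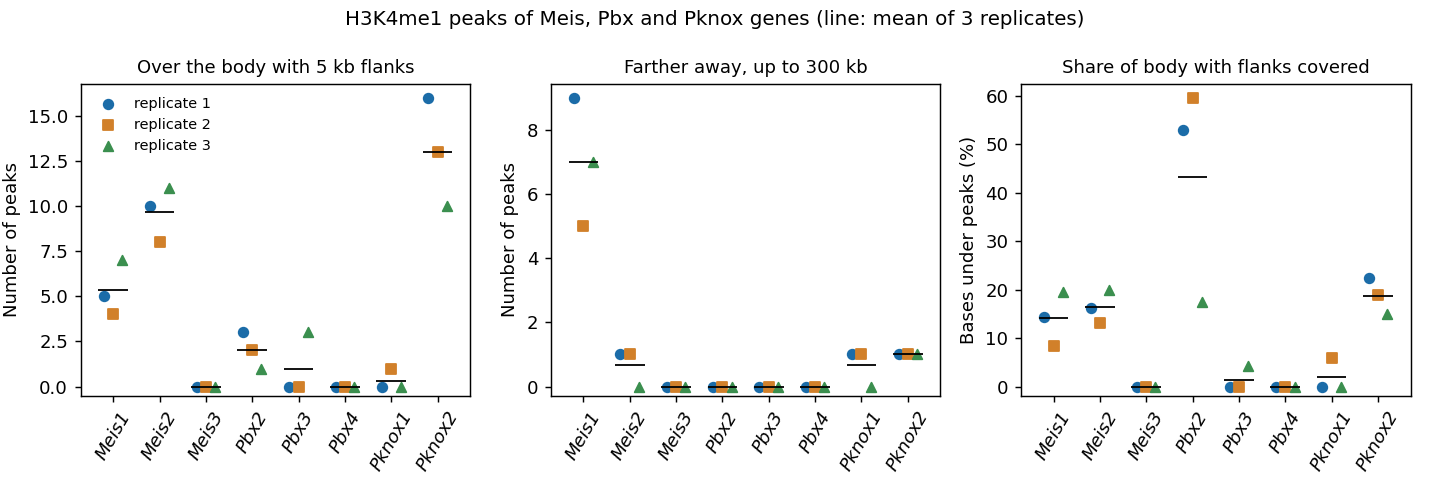
Number of peaks over the gene body with 5 kb flanks (left), number of peaks farther away up to 300 kb (middle) and share of the body with flanks under peaks in percent (right) for the 8 genes. Points are single replicates and lines are means of 3 replicates. Pknox2 and Meis2 carry the most peaks over the body, Meis1 the most at a distance, and Pbx2 the largest mean covered share. In replicate 3 Pbx2, at 17.5%, is below Meis2 and Meis1, at 19.9 and 19.5%.

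Pknox2 encodes one of the Pknox (Prep) proteins that bind DNA with Pbx partners. It spans 256 kb of chromosome 9 on the minus strand (GRCm38, 36890982 to 37147407). Peaks over it numbered 16, 13 and 10, which is 13 ± 3 on average (SD, n = 3), and covered 22.4, 18.8 and 14.9% of the body with flanks. Replicate 1 was highest and replicate 3 lowest. Since longer genes hold more peaks, the number was set against the 1593 protein-coding genes of 0.5 to 2 times its length, and 97.7, 97.9 and 93.3% of them had fewer. The highest pileup lay in an intron in all of these peaks. For 4, 3 and 1 of them, at the far end of the gene, the nearest protein-coding start site was that of its neighbour Fez1.

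The strongest region of all 8 genes was the 5′ part of Pknox2. Merged over the replicates, it ran from 37134956 to 37147334 (12.4 kb) and included 4 of the 7 annotated start sites of the gene. Only the peak of replicate 2 held all 4. The peaks of replicates 1 and 3 ended at 37146883 and 37146042, farther from the 5′ start. The total signal was 363722, 499621 and 332032, which was 13.2, 11.1 and 9.45 times the median of the respective list. This placed the peak at percentile 99.3, 99.1 and 99.3, with an SD of 0.114 points (n = 3). By mean percentile it ranked 79 among the 8916 regions that had a peak in all replicates and lay on a chromosome of the reference. Body peaks of Pknox2 held 1180, 1120 and 922 millionths of the signal of their lists, the largest share of the 8 genes in each replicate. With distant peaks included, Pknox2 held 1303, 1252 and 992 and Meis1 666, 483 and 1103, so that Meis1 was higher in replicate 3. A further region upstream, from 37171323 to 37180979, had its highest pileup 25.8 kb before the 5′ start and stood at percentile 91.0, 88.0 and 70.7. In replicate 3 it was called as more than 1 peak, and the part farther from Pknox2 was nearer to the start site of Tmem218.

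Within the body of Pknox2, introns held a row of shorter regions. Those with the highest pileup 118, 93.2 and 53.2 kb after the 5′ start stood at mean percentiles of 84.6 ± 7.75, 85 ± 6.48 and 79.8 ± 4.52 (SD, n = 3). The remaining body regions present in all replicates had means between 27.2 and 49.8. In all, 16 body regions were found, 9 of them in all replicates. Of the others, 4 were shared by replicates 1 and 2, 1 by replicates 1 and 3, and 2 were found in replicate 1 alone. No body region of Pknox2 was missing from replicate 1.

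The 93.2 kb region is shown as the strongest of this gene whose 3 highest pileups lay within 150 bp of each other, here 17 bp. This was the closest among the regions of the 8 genes with a peak in all replicates. Pileup reached 170, 187 and 86 in replicates 1, 2 and 3. The sequence around it was read from GRCm38.p6 at chr9:37054041-37054340, plus strand, with the stretch that holds the highest pileup of all 3 replicates in capitals.
Pknox2 intron: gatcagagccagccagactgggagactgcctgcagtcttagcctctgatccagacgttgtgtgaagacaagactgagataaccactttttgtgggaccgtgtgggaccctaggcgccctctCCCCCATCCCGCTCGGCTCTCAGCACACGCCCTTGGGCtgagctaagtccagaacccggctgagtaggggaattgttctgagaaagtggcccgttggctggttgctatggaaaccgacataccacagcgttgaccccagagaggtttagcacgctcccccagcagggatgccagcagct

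Meis2, a Hox and Pbx cofactor needed in cranial neural crest, spans 203 kb of chromosome 2 on the minus strand (115863064 to 116065839). Its peaks numbered 10, 8 and 11, on average 9.67 ± 1.53 (SD, n = 3), covering 16.1, 13.1 and 19.9% of the body with flanks. Among the 2097 protein-coding genes of 0.5 to 2 times its length, 94.3, 93.7 and 96.6% had fewer peaks. Pknox2 had more peaks than Meis2 in replicates 1 and 2 and fewer in replicate 3, so the order of these genes was not the same in all replicates.

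The strongest region of Meis2 began just inside the gene, from 116055288 to 116064255 (8.97 kb), with total signals of 91895, 128423 and 113423. It stood at percentile 89.4, 87.7 and 91.8, a mean of 89.6 ± 2.08 (SD, n = 3). On the other side of the start sites, the region from 116065903 to 116073373 was far less even. Its strongest peak was at percentile 8.23, 20.7 and 73.3, or 34.1 ± 34.6 (SD, n = 3), so the SD was as large as the mean. The peaks of replicates 1 and 2 do not overlap there and are joined only through the peak of replicate 3. These values therefore do not describe a single shared place. In the interior, regions in all replicates had their highest pileup 45.3, 64.2, 86 and 170 kb after the 5′ start, at mean percentiles of 62.9, 23.7, 43.2 and 33.1. Another lay at the 3′ flank of the gene, from 115851790 to 115861931. Its strongest peak was at percentile 70, 42.7 and 77.3, or 63.3 ± 18.2 (SD, n = 3). No base of it lay under a peak in all replicates, so these values also do not describe a single shared place. In total 7 of 13 regions were present in all replicates, and 2 more were shared by replicates 1 and 3. The 7 include the upstream and the 3′ flank regions, which are not a single shared place.

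The region 45.3 kb into Meis2 is shown as the strongest of this gene whose 3 highest pileups, of 75, 59 and 62, lay within 150 bp of each other, here 45 bp. The sequence is chr2:116020432-116020731 of GRCm38.p6, plus strand, and capitals again mark the stretch that holds the highest pileup of the 3 replicates.
Meis2 intron: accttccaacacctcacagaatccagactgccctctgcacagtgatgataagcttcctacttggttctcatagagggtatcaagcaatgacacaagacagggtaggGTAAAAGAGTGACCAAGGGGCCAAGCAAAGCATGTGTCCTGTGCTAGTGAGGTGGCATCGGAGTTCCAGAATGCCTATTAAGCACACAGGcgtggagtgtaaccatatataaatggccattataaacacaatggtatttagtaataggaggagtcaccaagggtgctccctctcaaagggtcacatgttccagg

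Meis1, the founding member of its family and a Hox cofactor in blood and limb, spans 139 kb of chromosome 11 on the minus strand (18879817 to 19018985). Over its body lay 5, 4 and 7 peaks (5.33 ± 1.53, SD, n = 3). This was fewer than over Meis2 and Pknox2 in each replicate. The covered share was 14.3, 8.36 and 19.5%. Among the 3006 protein-coding genes of 0.5 to 2 times its length, 86.2, 85.9 and 95.3% had fewer peaks.

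Distant peaks were most numerous at Meis1, with 9, 5 and 7 (7 ± 2, SD, n = 3), whereas no other member had more than 1 in any replicate. Under the nearest start site rule, a gene close to other protein-coding start sites can receive few distant peaks. The numbers were not matched for this. Only Meis1 and Pknox2 had such a peak in all replicates, as did 7.52% of all protein-coding genes. Without replicate 3 the count rose from 2 to 4 genes, with Meis2 and Pknox1. The distant peaks of Meis1 merged into 7 regions, of which 4 were in all replicates and 3 in replicates 1 and 3. Of the 7 regions, 2 lay beyond the 3′ end and the others upstream of the 5′ start.

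The strongest distant region of Meis1 was 3′ of the gene, from 18745327 to 18759190 (13.9 kb), with its highest pileup 270 kb after the 5′ start. Its strongest peak stood at percentile 89.8, 83.2 and 98.4, a mean of 90.5 ± 7.62 (SD, n = 3). In replicate 3 this stretch was a single peak of 13545 bp, whereas it was called in pieces in replicates 1 and 2. It overlaps the annotated noncoding gene Gm28401. Upstream, regions 101 and 241 kb before the 5′ start stood at 70.8 ± 10.2 and 74.9 ± 3.26 (SD, n = 3). Within the body, the strongest region lay next to the start sites, from 19006897 to 19017526 (10.6 kb), at percentile 91.5, 64.3 and 91.7. It was a single peak in replicates 1 and 3 and was split in replicate 2, where the pieces had total signals of 60006 and 48599.

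The region 101 kb upstream of Meis1 is shown as the strongest of this gene by the same limit, with highest pileups of 48, 48 and 40 that lay within 102 bp. In replicates 2 and 3 the highest pileup occupied the same bases, from 19120090 to 19120093. The sequence is chr11:19119941-19120240 of GRCm38.p6, plus strand, with capitals as before.
Meis1 upstream: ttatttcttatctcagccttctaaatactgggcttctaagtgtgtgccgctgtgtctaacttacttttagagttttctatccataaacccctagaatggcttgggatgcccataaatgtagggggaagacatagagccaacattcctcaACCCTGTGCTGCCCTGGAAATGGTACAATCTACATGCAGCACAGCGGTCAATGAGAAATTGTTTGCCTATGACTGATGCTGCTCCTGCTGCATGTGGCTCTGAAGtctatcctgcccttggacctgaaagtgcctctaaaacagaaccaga

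**Figure D2:**
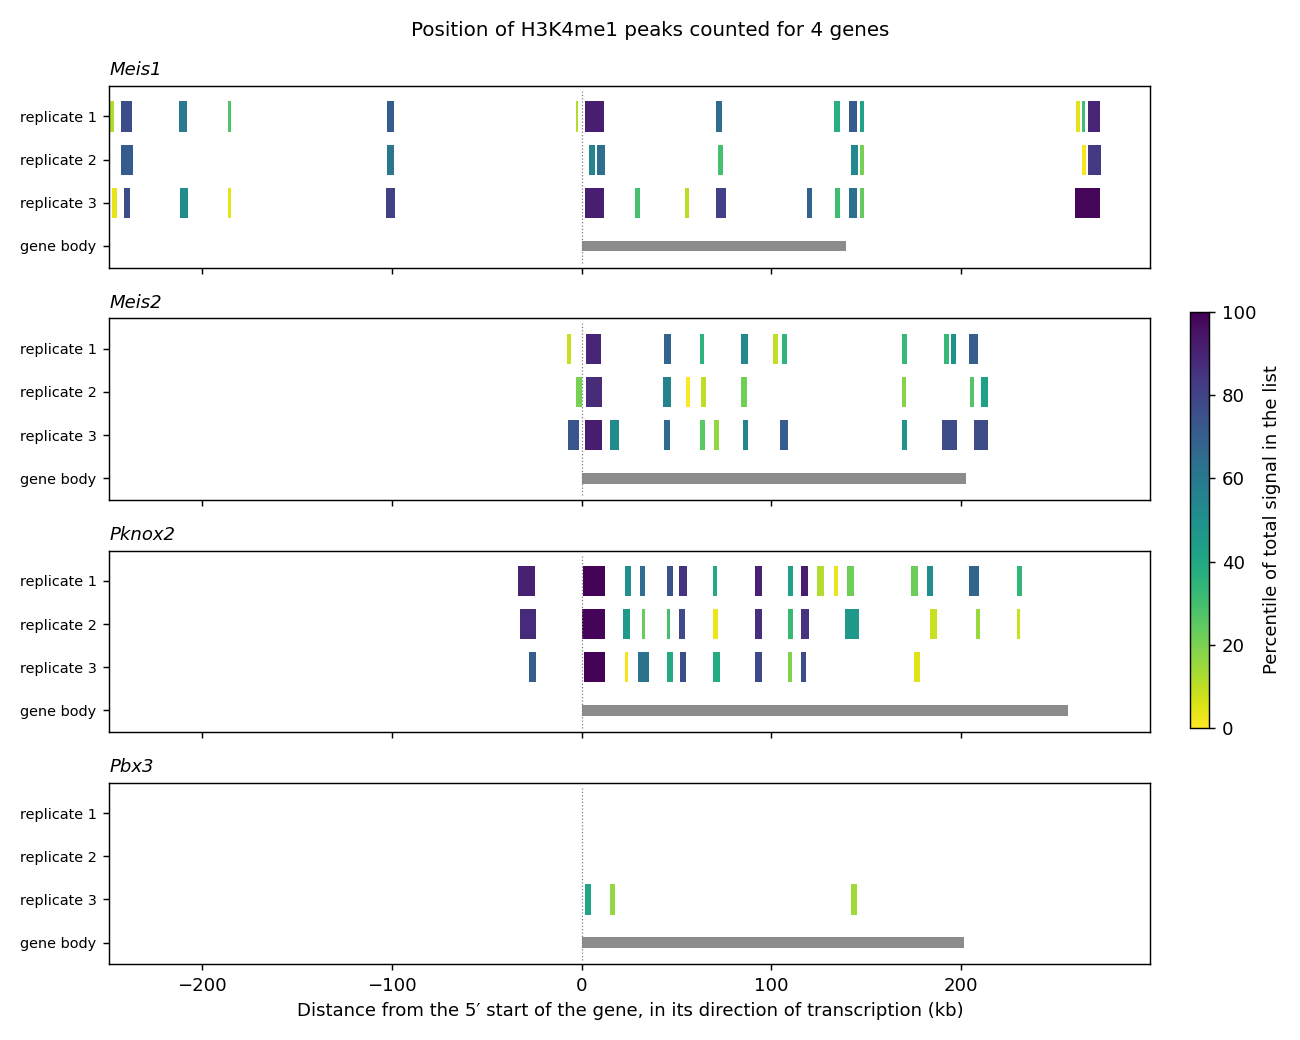
Positions of all peaks counted for Meis1, Meis2, Pknox2 and Pbx3, drawn to scale in kb from the 5′ start of each gene in its direction of transcription, with 1 row per replicate and the gene body in grey. Darker bars are peaks at a higher percentile of total signal in their list. The darkest bars within Meis1, Meis2 and Pknox2 lie just after the start, and the distant peaks of Meis1 extend from 247 kb before to 270 kb after it.

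Pbx2, a member of the Pbx family whose loss alone is tolerated in the mouse, is a short gene of 6.13 kb on chromosome 17 (34591266 to 34597400, plus strand) that overlaps the end of Gpsm3. Its 3, 2 and 1 peaks (2 ± 1, SD, n = 3) covered shares of 52.9, 59.5 and 17.5%. The peak over the 5′ start stood at percentile 81.3 in replicate 1 and 82.3 in replicate 2. A second region, from 34592682 to 34596439 within the gene, stood at 51.9 and 51.8 in these replicates. In replicate 1 a further peak lay upstream, at percentile 26.9 and nearest to Gpsm3. In replicate 3 the only peak, at percentile 32.4, ended 985 bp before the start and was nearest to the start site of Gpsm3. Pbx2 therefore had a peak in all replicates only through the 5 kb flank, and without flanks the count of genes with peaks in all replicates was 3. Notch4 also lies under the first region, and the mark cannot be assigned to one of these genes.

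Pbx3, which is known for its part in neurons that drive breathing, spans 202 kb of chromosome 2 (34171457 to 34373142). It had no peak in replicates 1 and 2 and 3 peaks in replicate 3, at percentiles 41.1, 16.4 and 14.3, with 4.19% of the body with flanks covered. The one at percentile 41.1 covered 2 of its 5 annotated start sites. In replicates 1 and 2 the nearest peak lay 152 and 151 kb from its 5′ start. Of the 2113 protein-coding genes of 0.5 to 2 times its length, 55.8, 50.7 and 55.8% had a peak over the body in replicates 1, 2 and 3. Of these 2113 genes, 37.5% had no such peak in any replicate.

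Pknox1, a widely expressed gene that is essential in the early embryo, spans 43 kb of chromosome 17 (31564734 to 31607693). It had 1 peak over the body, in replicate 2 and at percentile 0.894 of the list, from 31565242 to 31568371. Its highest pileup was 2.25 kb after the 5′ start. In replicates 1 and 2 a peak also lay upstream, with its highest pileup 6.45 kb before the start, at percentiles 49.9 and 13.0. In replicate 3 no peak was counted for Pknox1, and the nearest to its 5′ start was 157 kb away.

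Meis3, a hindbrain gene of 11.4 kb on chromosome 7 (16175090 to 16186504), and Pbx4, a gene known from testis, of 39.8 kb on chromosome 8 (69832491 to 69872292), had no peak by any part of the rule. The peak nearest to the 5′ start of Meis3 was 41.8, 42.2 and 128 kb away in replicates 1, 2 and 3. For Pbx4 the distances were 7.1, 52.6 and 139 kb. With flanks of 20 kb in place of 5 kb, the mean number of body peaks over the replicates was 1 for Pbx4 and 0 for Meis3. Since the lists hold only the strongest 1% of blocks, these genes are not shown to lack the mark.

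**Figure D3:**
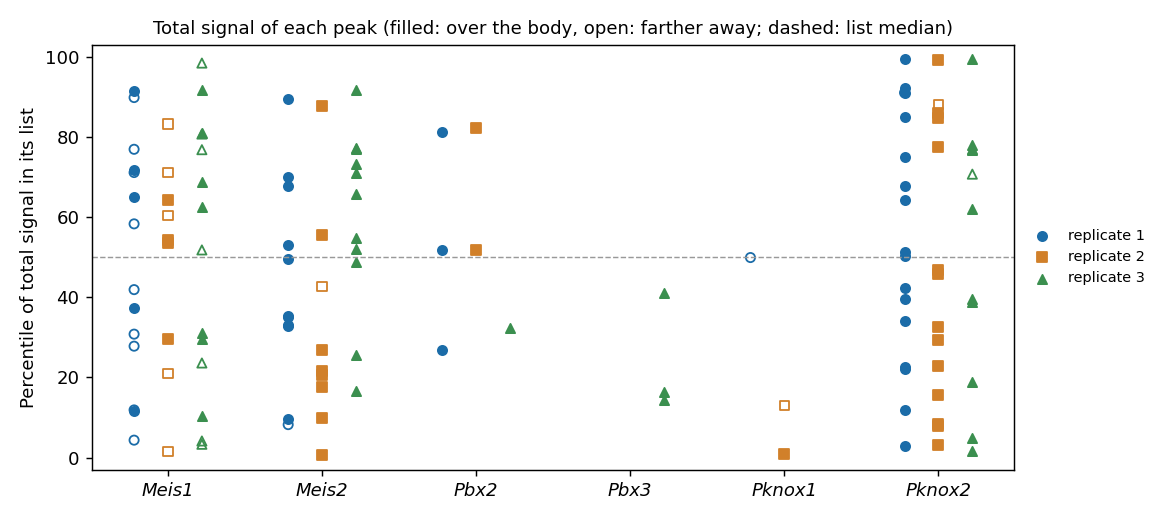
Percentile of total signal of each peak within its own list, by gene and replicate, with filled symbols for peaks over the body with 5 kb flanks and open symbols for peaks farther away. The dashed line at 50 is the list median. Meis1, Meis2 and Pknox2 each have peaks across most of the range, and the peaks of Pbx3 and Pknox1 lie below 50.

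Over the 8 genes, body peaks numbered 34, 28 and 32 in replicates 1, 2 and 3. Their median percentile was 50.8, 31.1 and 53.3, on average 45.1 ± 12.2 (SD, n = 3), within 1 SD of the list median of 50. Above percentile 90 stood 4, 1 and 3 of them. Median lengths of 3206, 3134 and 3174 bp compared with 2981, 3682 and 3352 bp over the lists. The highest pileup was in an intron in 79.4, 85.7 and 81.2% of them. The 52 regions of the 8 genes recurred about as often as any, with 25 (48.1%) in all replicates compared with 46.3% of the 19251 merged regions.

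A peak came within 1 kb of a start site in all replicates for 3 of the 8 genes, Meis2, Pbx2 and Pknox2, compared with 6.15% of all protein-coding genes. In replicate 3 Pbx2 qualified only through the peak nearest to Gpsm3, which ended 985 bp before its 5′ start. Meis2 qualified in replicates 1 and 3 only through start sites inside the gene. When the start site base itself had to lie under a peak, Pknox2 was the 1 gene of 8 left, and the share over all protein-coding genes was 3.65%. At Meis1 the nearest peak stayed downstream of the 5′ start by 1.79, 3.69 and 1.46 kb, and in replicate 1 a weak peak at percentile 11.6 began 1.81 kb upstream, leaving a gap of 3.59 kb. At Meis2 the gap around the 5′ start measured 7.82, 2.23 and 3.25 kb.

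Promoter sequences were available from RefSeq (GRCm38.p6, 250 bases before to 50 after the start) for 5 of the 8 genes, Meis1, Meis2, Meis3, Pbx2 and Pbx4. Those of Meis1 and Meis2 are shown because they fall in these gaps, and that of Pbx2 because a peak overlapped it in replicates 1 and 2. Capitals mark CG dinucleotides, of which the 3 promoters hold 15, 13 and 29, compared with a median of 7 over the 32851 promoters in the table. Meis3 and Pbx4, with 21 and 19, were also above that median, so CG content did not separate the genes with peaks from those without. The promoters are given on the strand of the gene, at chr11:19018920-19019219, chr2:116064570-116064869 and chr17:34592009-34592308.
Meis1 promoter: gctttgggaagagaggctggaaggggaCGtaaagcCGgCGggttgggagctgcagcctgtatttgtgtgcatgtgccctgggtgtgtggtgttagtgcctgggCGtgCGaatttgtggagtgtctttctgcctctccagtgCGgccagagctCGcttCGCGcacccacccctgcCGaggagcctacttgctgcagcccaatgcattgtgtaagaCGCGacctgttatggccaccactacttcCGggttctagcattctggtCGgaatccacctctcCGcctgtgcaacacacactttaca
Meis2 promoter: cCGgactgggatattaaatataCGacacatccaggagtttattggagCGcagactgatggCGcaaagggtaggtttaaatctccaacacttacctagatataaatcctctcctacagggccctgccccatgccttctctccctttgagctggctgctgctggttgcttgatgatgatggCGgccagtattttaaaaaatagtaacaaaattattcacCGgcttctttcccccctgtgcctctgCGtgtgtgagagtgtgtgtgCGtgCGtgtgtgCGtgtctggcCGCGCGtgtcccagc
Pbx2 promoter: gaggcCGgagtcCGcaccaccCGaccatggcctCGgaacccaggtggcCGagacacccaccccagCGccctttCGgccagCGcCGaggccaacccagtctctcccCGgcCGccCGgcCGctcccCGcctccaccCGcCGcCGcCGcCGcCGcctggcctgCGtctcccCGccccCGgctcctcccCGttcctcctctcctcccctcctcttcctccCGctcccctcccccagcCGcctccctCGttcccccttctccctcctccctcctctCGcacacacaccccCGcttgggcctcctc

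The binding motifs of the families were searched on both strands in the 300 bp around the highest pileup of the 25 regions present in all replicates. TGACAG, the core of Meis and Pknox sites, occurred in 4 of 25 windows (16%), compared with 21.9% of the windows of the 8916 regions. TGATTGAC and TGATTGAT, composite sites of Pbx with Meis or Hox partners, occurred in 0 of 25, compared with 0.527 and 0.516% of all windows. TGATTNAT, which includes TGATTGAT, occurred in 1 of 25 (4%) compared with 2.84%. None of the 4 motifs was found in the windows or promoters printed above, which says only that these letters are not there. In whole regions TGACAG was near universal, in 24 of 25 and in 96.6% of all.

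Replicate 3 was also compared with replicate 2 by GC content. Each region present in all replicates was given its share of the signal of such regions, and the shares of replicates 3 and 2 were compared as a log2 ratio. The ratio had a median of 0.51 over the 7 regions of Meis1, 0.38 over the 7 of Meis2 and -0.06 over the 10 of Pknox2. It was -1.45 at the region of Pbx2. The median GC content of all regions of these genes was 43.5, 43.8, 47.6 and 56.8%. Of the 15 regions with a GC content under 47.3%, the median of all regions in 3 replicates, 13 had a ratio above 0. Of the other 10, 4 did. Between replicates 1 and 2 the medians of these sets were 0.05 and 0.07. Regions seen in replicate 3 alone had a median GC content of 41.5% over the genome, and the 3 regions of Pbx3 had 40.3, 38 and 41.1%. Numbers of body peaks were highest in replicate 3 for Meis1, Meis2 and Pbx3, whose regions have a median GC content under that of all regions. For Pbx2, whose median is above it, the number was lowest in replicate 3. Distant peaks, left out of these numbers, were 9, 5 and 7 for Meis1 and 1, 1 and 0 for Meis2. The number of body peaks for Pknox2, with a median GC content of 47.6%, was also lowest in replicate 3. Between replicates 1 and 2 body peaks also differed, with 5 and 4 for Meis1, 10 and 8 for Meis2, 3 and 2 for Pbx2 and 16 and 13 for Pknox2. The part of GC content in these differences was not tested. Without replicate 3 the mean number of body peaks was 4.5 for Meis1, 9 for Meis2, 2.5 for Pbx2, 14.5 for Pknox2 and 0 for Pbx3.

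**Figure D4:**
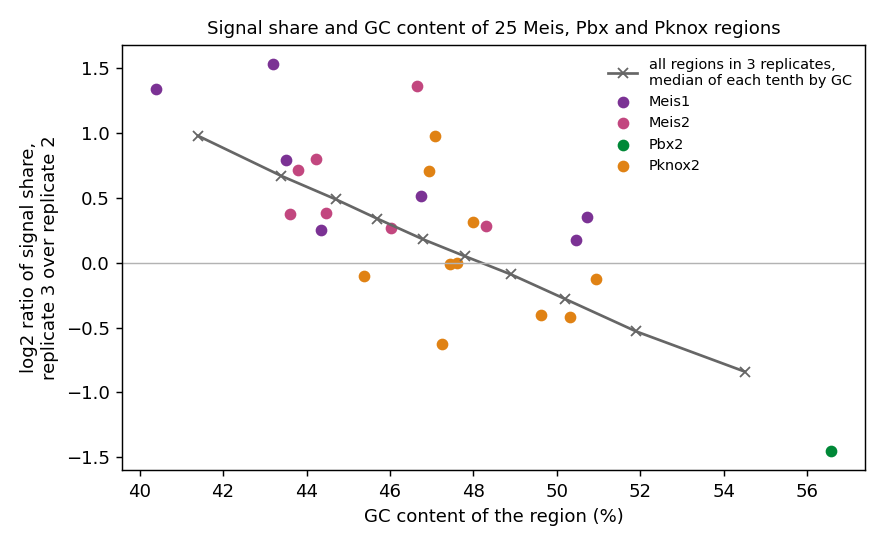
GC content in percent of the 25 regions of Meis1, Meis2, Pbx2 and Pknox2 with a peak in all replicates, against the log2 ratio of their signal share in replicate 3 over replicate 2. The grey line joins the medians of all regions in 10 equal classes of GC content, from 0.98 at 41.4% to -0.84 at 54.5%. The regions of the 4 genes scatter about this line, with Pbx2 lowest at -1.45.

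Highest pileups of the 3 replicates fell within 150 bp of each other in 7 of these 25 regions (28%), compared with 27.3% of all regions in 3 replicates. The median distance between the outermost of them was 514 bp, compared with 513 bp.

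A list of 15 related genes was counted in the same way. It held other TALE genes, a Pbx-binding protein and genes that Pbx or Meis proteins are known to act on, and 7, 7 and 5 of its members carried a peak over the body in replicates 1, 2 and 3. A peak in all replicates was present at 5 of the 15, compared with 15.5% of all protein-coding genes. These included Mkx, a TALE gene of tendon, with 2, 2 and 2 peaks, and Snai1, a factor of mesenchymal transition, with 1, 1 and 1. Trp63, a factor of the surface epithelium, had 1, 2 and 2, and Pax6, an eye and nasal placode gene, had 3, 3 and 1. Of the 15, 8 had no body peak in any replicate, compared with 71.2% of all protein-coding genes. Among these 8 were Hoxa2, Hoxb1 and Hoxb2, targets of Pbx in the hindbrain. Tgif1, a TALE repressor, had no body peak but 5, 3 and 2 distant ones.

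The genes whose covered share in the 3 replicates was most like that of Pknox2 were taken from 1590 other protein-coding genes of 0.5 to 2 times its length, by Euclidean distance in percentage points. They were Col23a1 (22.3, 18 and 15% covered, distance 0.816), Col26a1 (21.9, 20 and 14.1%, distance 1.48) and Chst11 (23.1, 17.2 and 15%, distance 1.76). The likeness rests on 3 values per gene.

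No test between genes was made, because the design has a single condition and 3 replicates, for which an exact two-sided sign-flip permutation test of 2 genes cannot give a p under 0.25. Nothing in the labels says whether the 3 samples came from separate embryos, so the SD covers the spread between these samples only.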

How the data were processed

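H3K4me1 was profiled by CUT&Tag in 3 whisker pad samples, called replicates 1, 2 and 3 after their titles. Per the labels and the methods of the study, the submitters' processing notes name Bowtie2 2.3, SAMtools 0.1.19, bedtools, SEACR 1.3 and mm10, and peaks were called per replicate in stringent mode, without IgG, from the top 1% of blocks. The deposited signal columns hold the total and the maximum pileup of each peak as whole numbers, with no scaling to depth. Read numbers were not measured here, and the treatment of duplicates is not given in the sources used here.

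Gene bodies and 54050 protein-coding start sites came from GENCODE vM21 (GRCm38, the build named mm10), and sequence from GRCm38.p6. Coordinates are 1-based. Peaks of the 3 lists were merged by an overlap of 1 bp. Distance to a start site was taken from the nearest edge of a peak, and distance to a body between nearest edges. Percentiles are mid-ranks within a list. Counting was done in Python 3.11.15 with pandas 2.3.3 and pysam 0.24.0, and was tested on simulated data. The genes named were the 8 members, with the region of highest mean percentile and the region nearest the start site of each, the 3 genes most like the member with most peaks, and a list of related genes, of which 1 is not reported here by name. Regions whose sequence is shown were chosen after their values were seen. The members and lists were chosen with earlier results of these data known. Alternatives covered stronger subsets of each list, joined peaks, other flanks and distances, maximum signal or signal per base in place of the total, and each replicate left out.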

Additional observations from a re-analysis of the deposited data

How the results depend on the processing

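For 31 results, 219 values were recomputed under alternatives, and 187 stayed within the replicate spread or, for counts, within 1.5 times. Some of the 187 could not have moved. A gene without a peak cannot gain one in a shorter list or with a replicate left out. For covered share and percentile, a mean without any single replicate always stays within the SD over all replicates. The values are counts, shares and percentiles, which have no sign, and were sorted only into those that stayed and those that moved. A reversal could therefore not be seen. Of the 32 that moved, 25 concerned single genes. The cause was not tested except where the construction shows it, since smaller lists hold fewer peaks. With the stronger 50% of each list the mean covered share of the 8 genes was 8.29% in place of 12%, and 12 regions in place of 25 were in all replicates. With the strongest 10000 peaks this number was 16, and with an overlap of at least 50% of both peaks a mean of 16.3 peaks per replicate qualified. The start site base alone lay under a peak in all replicates for 1 gene in place of 3. TGACAG was in 24 whole regions in place of 4 windows. Leaving out each replicate moved the number of genes with a distant peak in all the others between 2 and 4.

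No paired analysis was possible because IgG, the group whose replicate numbers match those of H3K4me1, was not analysed here. Genes are paired by replicate, but 3 replicates cannot give an exact sign-flip p under 0.25, and no such test was made. Leaving out each replicate for the start sites was chosen after seeing the data. Depth per library was not measured here, and absence from the strongest 1% of blocks is not absence of the mark.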
